A study of Mus musculus with 12 samples.

Results

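The 10 genes described here encode the proteins that store, release and take back calcium at the sarcoplasmic reticulum of heart muscle cells: Ryr2, Atp2a2, Pln, Casq1, Casq2, Hrc, Trdn, Jph1, Jph2 and Slc8a1. They were chosen by name, with earlier results of these data known. All 10 had at least 1 probe set with a single gene symbol, among the 19937 genes measured in this way. Where a gene had several such probe sets, the brightest on average was used. Values are log2 of the deposited intensity, so a difference of 1 is a doubling, and groups are compared for 1 gene at a time, since levels of different probe sets are not comparable.

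Total RNA from hearts of mice was profiled on 12 Affymetrix arrays, 4 labelled control, 4 labelled IDH2 R140Q mutant and 4 labelled IDH2 R172K mutant. IDH2 is a mitochondrial isocitrate dehydrogenase, and the substitutions make it produce D-2-hydroxyglutarate. The title of the study names cardiomyopathy and neurodegeneration as its question. All mice had a mixed background drawn from C57BL/6, 129/sv and Balb/c. Mutant mice received 2 mg of 4-hydroxytamoxifen for 3 days from an age of 5 weeks, as far as the labels say. The promoter and the Cre line behind the mutant allele, the genotype and treatment of the controls, sex and age at dissection were not stated in the labels, so the mutation and the drug cannot be told apart. The labels number the replicates without saying that they came from different animals, and p-values therefore describe sample-to-sample spread, which may be technical.

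In each heartbeat, calcium that enters through L-type channels opens the ryanodine receptor Ryr2 in the sarcoplasmic reticulum membrane, and the released calcium drives contraction. The pump SERCA2, encoded by Atp2a2 and held back by phospholamban (Pln), returns calcium to the store, where calsequestrin and other proteins bind it, while the exchanger encoded by Slc8a1 moves calcium out of the cell. Triadin and the junctophilins hold the release sites together and close to the outer membrane.

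The label heart held for all arrays: the 16 cardiomyocyte markers averaged between 12.47 and 12.94 on every array. The arrays differed in other tissue. The atrial markers ranged from 6.64 to 10.64 over the arrays, with the atrial light chain Myl7 between 5.23 and 12.49, and the 4 lung markers stood at 9.62 in R140Q 4 against 5.14 to 5.86 elsewhere. For Idh2 itself the group means were 12.74 ± 0.11 (control), 12.45 ± 0.14 (R140Q) and 12.38 ± 0.33 (R172K; SD, n = 4 each), and neither mutant passed the test (limma adjusted p of 0.301 and 0.109); a change of 1 residue is not visible in these values.

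In R172K hearts, 5 of the 10 genes were lower than in control and none was higher: the release channel Ryr2, the pump Atp2a2, its inhibitor Pln and the luminal calcium-binding genes Casq1 and Hrc. Casq1 was 6.01-fold lower and Hrc 1.93-fold lower, while Ryr2, Atp2a2 and Pln were 1.41-fold, 1.19-fold and 1.19-fold lower. Called means a limma adjusted p under 0.05 over all genes, and 6.78% of the 19937 genes were called lower in this comparison (13% in either direction). The 10 genes had a median log2 difference of -0.25 and 9 negative differences, and all genes had a median of -0.0033. On 6 genes, the called ones and Jph1, every R172K array lay below every control array, which held in this direction for 8.72% of all genes.

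In R140Q hearts, limma called 0 of the 10 genes, beside 2.2% of all genes in either direction and 1.12% lower. 5 of the 10 had an unadjusted p under 0.05, all with negative differences, beside 3394 of all 19937 genes in either direction. The 10 genes had a median difference of -0.15, with 7 negative differences, beside 0.0030 for all genes. Every R140Q array lay below every control array for 4 genes, Ryr2, Atp2a2, Pln and Hrc, beside 7.04% of all genes. The comparisons of the mutants with control use the same 4 control arrays, so their results are not independent of each other.

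Compared directly, R172K and R140Q differed in 0 of the 10 genes by limma, beside 1.48% of all genes in either direction. 2 of the 10, Casq2 and Hrc, had an unadjusted p under 0.05, beside 3256 of all 19937 genes. Differences were negative for 9 genes, with a median of -0.12 beside -0.0032 for all genes. The arrays did not overlap for Casq2 alone, lower in R172K, which held for 4.64% of all genes. Group means were highest in control and lowest in R172K for 7 genes, and R140Q and R172K were not separated at the threshold for any of them.

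**Figure D1:**
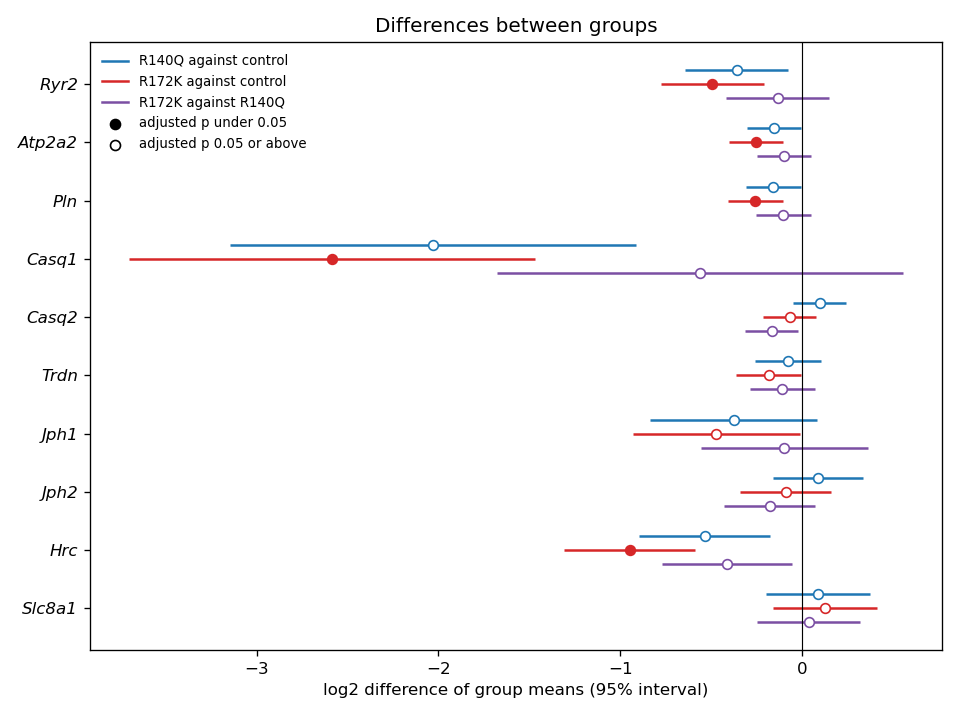
Log2 difference of group means for each of the 10 genes (horizontal axis, log2 units) in R140Q and in R172K hearts, and of R172K from R140Q, with the limma 95% confidence interval; n = 4 arrays a group, and filled points have an adjusted p under 0.05. Casq1 lies farthest from 0, at -2.03 in R140Q and -2.59 in R172K, followed by Hrc at -0.53 and -0.95.

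Ryr2 is the channel through which the store releases calcium. Its log2 values (probe set 10407598) were 12.59, 12.48, 12.41 and 12.40 in control replicates 1 to 4, 12.14, 12.35, 11.84 and 12.12 in R140Q, and 12.06, 11.99, 12.26 and 11.60 in R172K. All mutant arrays lay below all control arrays, with R172K 4 lowest. In R172K it fell by 0.49 ± 0.13 on the log2 scale (SE; 95% confidence interval -0.77 to -0.21; limma adjusted p = 0.0279). In R140Q the difference was -0.36 ± 0.13 (adjusted p = 0.174), and between the mutants -0.13 ± 0.13 (interval -0.42 to 0.15, adjusted p = 0.697). The R172K call was lost without control 1 (adjusted p = 0.0788), control 2 (0.0678), R172K 1 (0.0567), R172K 2 (0.0598) or R172K 4 (0.0534, difference -0.37).

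With predicted genes and clone names left out, the 3 genes nearest in profile to Ryr2 over the 12 arrays were Ndufa5, Uqcr11 and Acyp2. Root mean square differences were 0.0743, 0.0808 and 0.0814 log2 units after each gene was centred on its own mean. Ndufa5 and Uqcr11 encode subunits of respiratory complexes. Profiles were compared over samples of all 3 groups, which share their arrays.

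Atp2a2 encodes the pump that refills the store. On probe set 10533483 it read 13.59, 13.59, 13.59 and 13.54 in control, 13.42, 13.49, 13.28 and 13.49 in R140Q, and 13.30, 13.30, 13.47 and 13.22 in R172K. The control arrays were close together and above every mutant array, with R172K 4 lowest. The gene fell by 0.25 ± 0.07 in R172K (limma adjusted p = 0.0315), and in R140Q the difference was -0.15 ± 0.07 (adjusted p = 0.276).

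Pln encodes phospholamban, which slows the pump until it is phosphorylated. Its log2 values (probe set 10363157) were 13.51, 13.52, 13.52 and 13.49 in control, 13.29, 13.40, 13.28 and 13.44 in R140Q, and 13.31, 13.27, 13.36 and 13.07 in R172K. Again all mutant arrays were below all control arrays, with R172K 4 lowest. It fell by 0.26 ± 0.07 in R172K (limma adjusted p = 0.0309), and in R140Q the difference was -0.16 ± 0.07 (adjusted p = 0.276).

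The R172K calls of pump and inhibitor depended on single arrays. Both were lost on leaving out any one control array (adjusted p of 0.0746, 0.0786, 0.0662 and 0.0546 for Atp2a2 and 0.0692, 0.0760, 0.0645 and 0.0598 for Pln, without control 1 to 4). They were also lost without R172K 1 (0.0827 and 0.0563), R172K 2 (0.0735 and 0.0609) or R172K 4 (0.0763 and 0.0642).

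**Figure D2:**
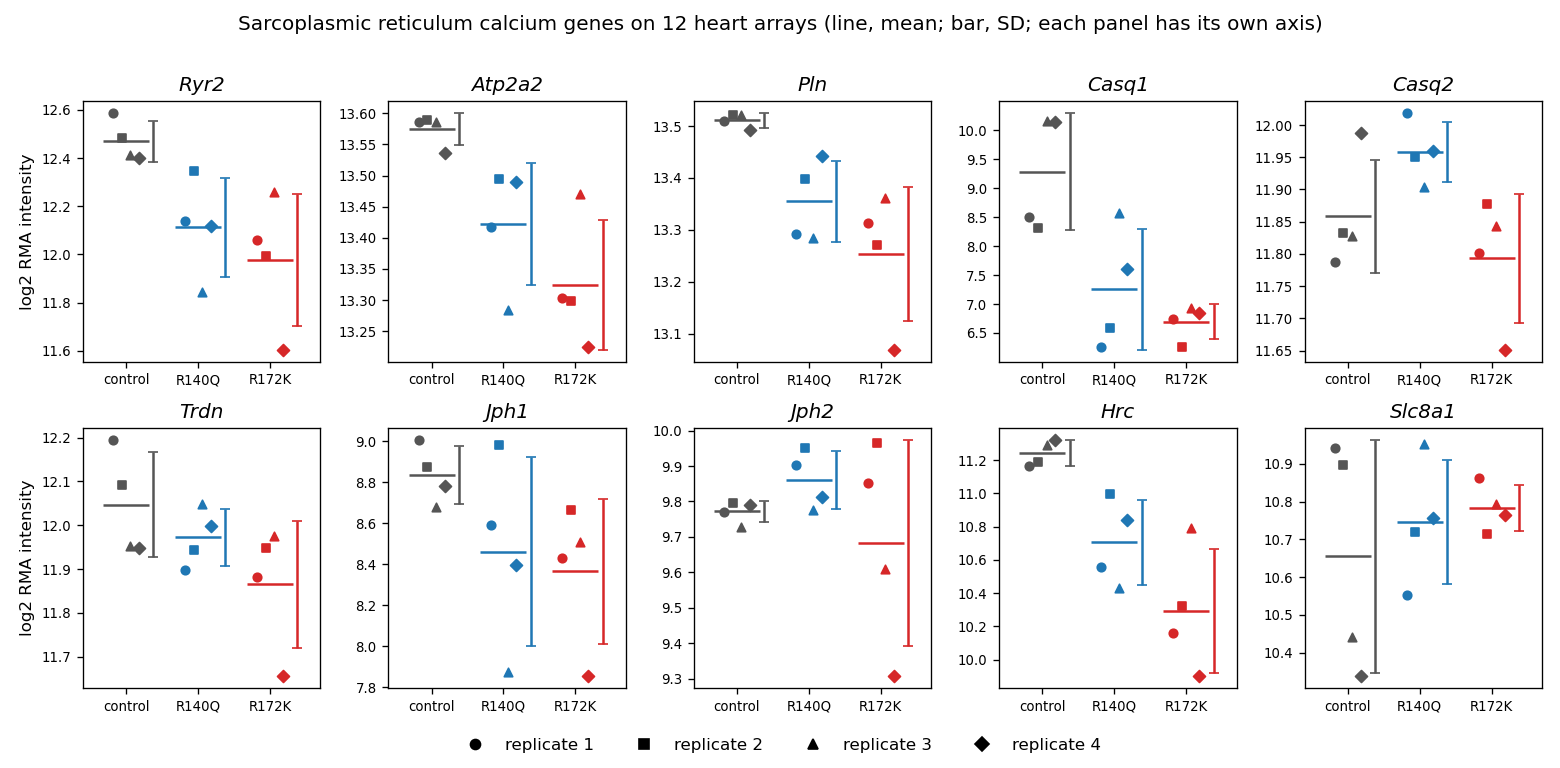
Log2 intensity of each of the 10 genes on each of the 12 arrays, 1 panel a gene, by group; each point is an array with its marker shape giving the replicate number, the line is the group mean and the bar its SD. R172K 4 is the lowest of all 12 arrays in 8 of the 10 panels, and the Casq1 panel has the widest spread.

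Casq1, Casq2 and Hrc bind calcium inside the store. Casq2 is the calsequestrin of heart muscle, Casq1 is best known as that of fast skeletal muscle, and Hrc encodes the histidine-rich calcium-binding protein, which binds both the pump and triadin. Their upstream sequences are shown because these 3 genes of like function differed in how they changed. Each is the 250 bases before the RefSeq start on GRCm38.p6, 5′ to 3′ on the gene's strand, from chr1:172219896-172220145 (minus strand) for Casq1, chr3:102086165-102086414 (plus) for Casq2 and chr7:45335019-45335268 (plus) for Hrc. Capitals mark E-boxes (CANNTG, the same on both strands), the core site of MyoD-type and other helix-loop-helix factors.
Casq1: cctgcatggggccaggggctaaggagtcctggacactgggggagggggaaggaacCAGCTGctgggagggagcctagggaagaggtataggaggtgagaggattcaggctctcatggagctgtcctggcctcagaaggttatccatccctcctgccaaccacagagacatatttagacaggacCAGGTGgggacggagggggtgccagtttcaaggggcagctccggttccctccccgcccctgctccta
Casq2: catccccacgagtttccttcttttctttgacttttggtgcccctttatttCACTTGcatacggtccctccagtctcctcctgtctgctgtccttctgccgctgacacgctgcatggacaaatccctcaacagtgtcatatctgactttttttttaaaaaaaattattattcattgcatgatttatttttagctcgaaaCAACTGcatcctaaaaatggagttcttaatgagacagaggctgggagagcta
Hrc: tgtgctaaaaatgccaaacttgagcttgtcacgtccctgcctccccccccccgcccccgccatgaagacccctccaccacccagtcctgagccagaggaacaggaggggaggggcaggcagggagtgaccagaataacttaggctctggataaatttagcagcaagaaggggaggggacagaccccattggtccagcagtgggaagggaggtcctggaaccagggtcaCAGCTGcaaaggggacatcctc
E-boxes began at positions -195 and -67 from the start in Casq1, at -200 and -52 in Casq2 and at -22 in Hrc. Sequences of 7 of the 10 genes were in the RefSeq promoter table, and all 7 held an E-box, as did 66.2% of 32851 promoters of the same length. GATAA, on either strand, occurred in 4 of the 7, once in Casq1 and in Hrc and 2 times in Pln and in Slc8a1, and in 22.6% of all promoters. A MEF2 motif was found in Casq2 alone of the 7, at -69, and in 2.92% of all promoters. A CArG box (1.47% of all) was in none of the 7, and no motif overlapped another in the 3 sequences shown. These are letter matches and the arrays measured no binding.

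Casq1 had the largest differences of the 10 genes in both mutants. Its log2 values (probe set 10360235) were 8.51, 8.31, 10.17 and 10.14 in control, 6.27, 6.58, 8.57 and 7.60 in R140Q, and 6.75, 6.26, 6.94 and 6.84 in R172K. Controls 3 and 4 stood well above controls 1 and 2, R140Q 3 lay within the control range, and every R172K array lay below every control. In R172K, Casq1 fell by 2.59 ± 0.52 (SE; interval -3.71 to -1.47; limma adjusted p = 0.00825). This call held when any 1 array was left out, with differences from -2.91 to -2.29 and adjusted p up to 0.0267. Since no detection calls were used, the R172K values may lie near background, where the fold would be understated.

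In R140Q the Casq1 difference was -2.03 ± 0.52 (interval -3.15 to -0.91), 4.08-fold lower, and missed the threshold (limma adjusted p = 0.0600). It passed without R140Q 3 (-2.47, adjusted p = 0.0462) or R172K 4 (adjusted p = 0.0497). The atrial marker mean lay between 7.60 and 10.64 in control, 6.64 and 7.67 in R140Q, and 8.53 and 10.04 in R172K. With the atrial gene Myl7 as a covariate, the R140Q difference of Casq1 was -1.19 (adjusted p = 0.551) and that in R172K was -2.60 (adjusted p = 0.00657). Myl7 itself was lower on every R140Q array than on every control (-3.52), so in R140Q this covariate cannot be separated from the group. With it, the R140Q calls over all genes went from 439 to 13. Between the mutants the Casq1 difference without the covariate was -0.56 ± 0.52 (interval -1.68 to 0.56, adjusted p = 0.674).

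Because Casq1 is a skeletal muscle calsequestrin, markers of that tissue were read on the same arrays. Of the 13 skeletal muscle markers, 12 did not pass the test in R172K and lay between 4.55 and 7.89 on every array. The fast myosins Myh1, Myh2 and Myh4 lay between 4.55 and 5.92 and the fast light chain Mylpf between 4.78 and 5.41 over all 12 arrays. Mybpc2, the fast myosin-binding protein, was the exception: at 8.16, 7.68, 8.48 and 8.02 in control and 6.25, 6.57, 7.02 and 7.20 in R172K, it fell by 1.32 ± 0.21 (limma adjusted p = 0.00328). The summed skeletal level, as a mean of log2 values, was 5.79 to 5.94 in control, 5.74 to 5.79 in R140Q and 5.68 to 5.85 in R172K. With predicted genes and clone names left out, Casq1 was nearest in profile to Dhdh, As3mt and Wif1. Root mean square differences were 0.789, 0.808 and 0.834 log2 units over the 12 arrays.

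Casq2, the cardiac form, had small differences. On probe set 10494804 it read 11.79, 11.83, 11.83 and 11.99 in control, 12.02, 11.95, 11.90 and 11.96 in R140Q, and 11.80, 11.88, 11.84 and 11.65 in R172K. Both mutant groups overlapped control, and each R172K array lay below each R140Q array. The difference from control was 0.10 ± 0.07 in R140Q (interval -0.05 to 0.25; limma adjusted p = 0.516) and -0.07 ± 0.07 in R172K (interval -0.21 to 0.08; 0.604), and between the mutants -0.17 ± 0.07 (0.242).

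Hrc had the smallest p of the 10 genes in R172K. On probe set 10552919 it read 11.16, 11.19, 11.29 and 11.32 in control, 10.56, 10.9953, 10.43 and 10.84 in R140Q, and 10.16, 10.32, 10.79 and 9.90 in R172K. All mutant arrays lay below all controls, and R172K 3 alone of its group reached into the R140Q range. It fell by 0.95 ± 0.17 in R172K (interval -1.31 to -0.59; limma adjusted p = 0.00472), and the call held on leaving out any 1 array (-1.11 to -0.82, adjusted p up to 0.0197). In R140Q the difference was -0.53 ± 0.17 (adjusted p = 0.113), and it passed without R172K 3 (adjusted p = 0.0328), an array of the other mutant that enters through the shared spread. The mutants differed by -0.41 ± 0.17 (adjusted p = 0.234), which passed without R172K 3 (-0.58, adjusted p = 0.0228).

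Trdn encodes triadin, which anchors calsequestrin to the release channel. Its log2 values in the chosen probe set (10362420) were 12.20, 12.09, 11.95 and 11.95 in control, 11.90, 11.94, 12.05 and 11.9985 in R140Q, and 11.88, 11.95, 11.98 and 11.66 in R172K. All groups overlapped. Differences were -0.08 ± 0.08 in R140Q (limma adjusted p = 0.729) and -0.18 ± 0.08 in R172K (adjusted p = 0.183).

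The arrays carry 19 probe sets for Trdn, a gene with several splice forms, and these did not all give the same picture. All 19 had a negative difference in each mutant, from -0.44 to -0.04 in R140Q (median -0.22) and from -0.49 to -0.13 in R172K (median -0.25). They measure 1 gene in the same samples and are not replicates. In a fit to all 21640 probe sets, 1 of the 19 was called in R140Q and 2 in R172K. Probe set 10362404, the one annotated with the most transcript records, read 12.0026, 11.92, 12.03 and 11.98 in control, 11.60, 11.73, 11.52 and 11.61 in R140Q, and 11.63, 11.49, 11.61 and 11.25 in R172K, with every mutant array below every control. It fell by 0.36 ± 0.08 in R140Q (limma adjusted p = 0.0456) and by 0.49 ± 0.08 in R172K (adjusted p = 0.00453); it was singled out after its values were seen. With it standing for Trdn in the fit to genes, the R172K call held without any 1 array (adjusted p up to 0.0151), and the R140Q call was lost in 9 of the 12 such fits (adjusted p up to 0.140). The second called in R172K, 10362432, read 11.07, 11.02, 10.70 and 10.74 in control and 10.51, 10.53, 10.69 and 10.21 in R172K, a difference of -0.39 ± 0.11 (adjusted p = 0.0391). Which exons these probe sets read was not analysed here.

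**Figure D3:**
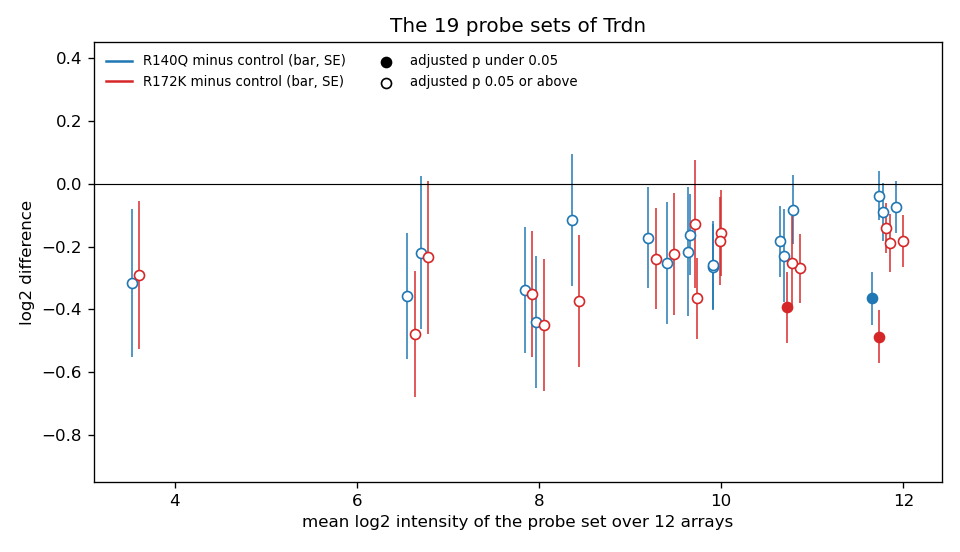
Log2 difference from control for each of the 19 Trdn probe sets in R140Q and R172K hearts against the probe set's mean log2 intensity over the 12 arrays; bars are SE, filled points were called by limma over all probe sets, and points of the groups are set slightly apart sideways. All points lie below 0, and the brightest probe set, which stands for the gene, is among the smaller differences.

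Jph1 and Jph2 encode junctophilins, which bridge the store to the outer membrane; Jph2 is the main cardiac form. Jph1 (probe set 10353309) had log2 values of 9.01, 8.87, 8.68 and 8.78 in control, 8.59, 8.98, 7.87 and 8.40 in R140Q, and 8.43, 8.67, 8.51 and 7.86 in R172K. R140Q 2 lay within the control range, and each R172K array lay below each control, the closest pair being 8.67 and 8.68. The differences were -0.37 ± 0.21 (limma adjusted p = 0.414) in R140Q and -0.47 ± 0.21 (adjusted p = 0.178) in R172K. The second Jph1 probe set differed by -0.51 ± 0.17 in R172K (adjusted p = 0.0697).

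Jph2 (probe set 10489355) had log2 values of 9.77, 9.80, 9.73 and 9.79 in control, 9.90, 9.95, 9.77 and 9.81 in R140Q, and 9.85, 9.97, 9.61 and 9.31 in R172K. Control arrays were tight, and R172K arrays lay on both sides of them. Its differences, 0.09 ± 0.11 in R140Q (interval -0.16 to 0.34) and -0.09 ± 0.11 in R172K (-0.34 to 0.16), missed the threshold (limma adjusted p of 0.780 and 0.694), and the R172K sign turned without R172K 4 (0.04).

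Slc8a1 encodes the sodium-calcium exchanger of the outer membrane. The brighter of its probe sets (10453233) read 10.94, 10.90, 10.44 and 10.34 in control, 10.55, 10.72, 10.95 and 10.76 in R140Q, and 10.86, 10.71, 10.79 and 10.76 in R172K. Controls fell apart into a higher and a lower pair that bracketed nearly all mutant arrays. Differences of 0.09 ± 0.13 in R140Q (interval -0.19 to 0.38) and 0.13 ± 0.13 in R172K (interval -0.16 to 0.41) missed the threshold (limma adjusted p of 0.810 and 0.600). It was the one gene of the 10 with a positive difference in R172K. A second, dimmer probe set (10453231) read 8.52, 8.78, 8.92 and 8.72 in control and 9.22, 8.95, 9.54 and 9.51 in R140Q, all above control, with a difference of 0.57 ± 0.18 (adjusted p = 0.126). In R172K it read 8.61, 8.63, 9.21 and 9.38, across the control range.

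Many of the low values came from 1 array. R172K 4 was the lowest of all 12 in 8 of the 10 genes, all but Casq1 and Slc8a1. Without it, the R172K differences were -0.37 for Ryr2, -0.22 for Atp2a2, -0.20 for Pln, -2.64 for Casq1 and -0.82 for Hrc, and Casq1 and Hrc stayed called. R140Q 3 was the lowest of its group in 7 genes, and R172K 3 the highest of its group in 6. R172K 4 also had the lowest cardiomyocyte mean (12.47, against 12.77 to 12.80 in its group) and the highest fibroblast mean (10.63, against 9.40 to 10.02). Its macrophage mean was the highest as well (9.08, against 7.74 to 8.23 in its group). In the fit with array weights, R172K 3 and R172K 4 were weighted 0.36 and 0.37, against 0.90 to 1.96 for the rest.

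Some markers of heart muscle cells moved in the same comparison. Of the 16 cardiomyocyte markers, limma called 6 lower in R172K and none higher, beside 6.78% of all genes lower. These were Tnni3, Myl2, Ttn, Mb, Ckm and Myoz2, by 0.17 to 0.54, with a list median of -0.22. Differences were negative for 12 of the 16. They were positive for Actn2 (0.22), Ldb3 (0.26), Csrp3 (0.09) and Tnnc1 (0.01), none of them called. For Actn2 and Ldb3, every R172K array lay above every control. In either direction, arrays did not overlap for 10 of the 16 markers, beside 3228 of all 19937 genes. In R140Q limma called 0 of the 16, with a median of -0.08. An unadjusted p under 0.05 was found for 3 of the 16, beside 3394 of all 19937 genes. The cardiomyocyte mean lay between 12.85 and 12.94 in control, 12.79 and 12.84 in R140Q, and 12.47 and 12.80 in R172K. Of the 9 fibroblast markers, 5 rose in R172K (Col1a1, Col1a2, Col3a1, Pdgfra and Postn), beside 6.23% of all genes. The others, Dcn (0.10), Lum (0.19), Tcf21 (0.12) and Dpt (-0.35), were not called. The mean of the 9 lay between 8.87 and 9.39 in control and 9.40 and 10.63 in R172K.

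Some markers of vessels moved as well. Of 6 endothelial markers, 2 rose in R140Q (Cdh5 and Kdr, by 0.45 each), beside 1.08% of all genes. In R172K 1 of the 6 rose (Kdr, by 0.53), beside 6.23% of all genes. The endothelial mean lay between 10.06 and 10.19 in control, 10.36 and 10.47 in R140Q, and 10.27 and 10.55 in R172K, with no overlap between control and either mutant. Of 6 smooth muscle and pericyte markers, Rgs5 and Pdgfrb rose in R172K, by 0.29 and 0.53, beside 6.23% of all genes. Tagln (0.50), Acta2 (-0.51), Myh11 (-0.10) and Cnn1 (-0.08) were not called in R172K, so that 3 of the 6 differences were negative. In R140Q limma called 0 of the 6, with 2 at an unadjusted p under 0.05, beside 3394 of all 19937 genes. In bulk tissue, fewer cells of a type and less RNA per cell cannot be told apart, and the part of cell composition was not tested. The rescaling that follows moves all genes of an array by the same amount. Of its 16 cardiomyocyte markers, 6 were themselves called lower in R172K. It therefore cannot separate cell composition from expression, and genes with larger differences stay lower by their size.

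When every array was centred on its 16 cardiomyocyte markers, Casq1 (-2.39, limma adjusted p = 0.0104) and Hrc (-0.75, adjusted p = 0.00735) stayed lower in R172K. Ryr2 kept a difference of -0.30 and missed the threshold (adjusted p = 0.0601), and Atp2a2 and Pln came to -0.06 each (adjusted p of 0.583 and 0.476). After the centring, the median difference of all genes was 0.19 in R172K, 0.08 in R140Q and 0.11 between the mutants, where before it had been -0.0033, 0.0030 and -0.0032. It turned the R172K differences of Casq2 (0.13), Trdn (0.01) and Jph2 (0.11) positive. The calls over all genes became 4028 higher and 520 lower in R172K, where they had been 1242 and 1351. Centring on each array's median instead kept all 5 R172K calls, and moved the split of all calls in R140Q from 216 higher and 223 lower to 268 and 178.

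**Figure D4:**
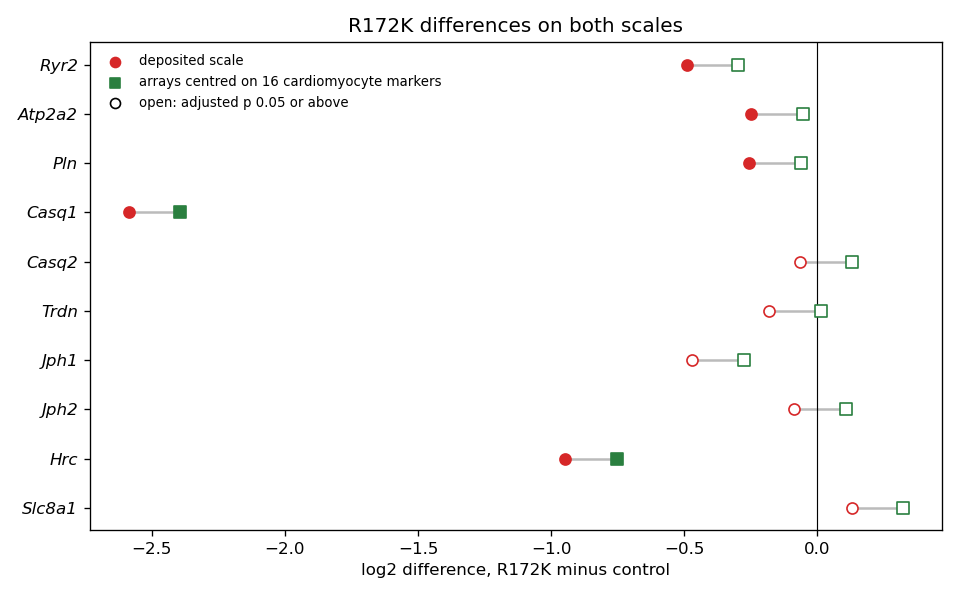
Log2 difference from control of each of the 10 genes in R172K hearts on the deposited scale and after each array was centred on its 16 cardiomyocyte markers; filled points have a limma adjusted p under 0.05, and a line joins the values of a gene. Casq1 and Hrc stay well below 0 on both scales, and Atp2a2 and Pln move to -0.06.

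A further 76 genes of calcium handling were listed by function, and 66 were measured. In R172K, 10 rose and 10 fell, with a median of 0.00067, beside 6.23% of all genes higher and 6.78% lower. In R140Q, 1 rose and 1 fell (all genes 1.08% and 1.12%), and between the mutants 1 was higher and 1 lower in R172K (0.487% and 0.998%).

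Among 25 measured partners in release, uptake and buffering, 3 rose and 2 fell in R172K, beside 6.23% of all genes higher and 6.78% lower. The risers were Sri, which encodes the calcium-binding protein sorcin (0.55 ± 0.11), Srl, which encodes the luminal protein sarcalumenin (0.31 ± 0.07), and Stim2, a store calcium sensor (0.34 ± 0.09). Asph, whose products include the triadin partner junctin, fell by 0.24 ± 0.06, and Itpr2, an inositol trisphosphate receptor, fell by 0.43 ± 0.13. These were named because they passed, after their values were seen.

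Of 12 sarcolemmal transport genes, 2 fell and 1 rose in R172K, beside 6.78% of all genes lower and 6.23% higher. Cacna2d1 encodes an auxiliary subunit of the L-type calcium channel and had 2 probe sets, of which only the brighter is given here. It read 11.34, 11.05, 10.92 and 11.30 in control, 10.05, 10.51, 10.30 and 10.40 in R140Q, and 9.96, 10.11, 10.03 and 9.77 in R172K. Control arrays overlapped neither mutant. Cacna2d1 fell by 0.84 ± 0.12 in R140Q (limma adjusted p = 0.00506) and by 1.18 ± 0.12 in R172K (adjusted p = 0.000678). Cacna1c, which encodes the pore of that channel, fell by 0.50 ± 0.14 in R172K, and Atp1b1, a sodium pump subunit, rose by 0.45 ± 0.13. With Myl7 as a covariate, the R140Q difference of Cacna2d1 was -0.95 and missed the threshold (adjusted p = 0.0622). Myl7 was lower on every R140Q array than on every control, and only 13 of all genes passed in that fit.

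Of 20 measured regulators, 4 rose and 5 fell in R172K, beside 6.23% of all genes higher and 6.78% lower. Calm3, a calmodulin gene, read 9.68, 9.76, 9.95 and 9.94 in control, 10.41, 10.23, 10.40 and 10.11 in R140Q, and 11.04, 10.90, 10.55 and 10.89 in R172K, and rose by 1.01 ± 0.11 in R172K (limma adjusted p = 0.000678). Each R172K array lay above each R140Q array, which lay above each control. Camk2a, a kinase that calmodulin activates, read 7.56, 7.63, 7.64 and 7.69 in control and 6.75, 6.51, 7.09 and 6.49 in R172K, a fall by 0.92 ± 0.12 (adjusted p = 0.00142). Ppp2ca, a phosphatase catalytic subunit, rose from 10.88, 11.03, 11.10 and 11.06 to 11.51, 11.62, 11.43 and 11.47, by 0.49 ± 0.07 (adjusted p = 0.00193). Calm2 and Prkar1a also rose and Camk2d, Prkar2a, Akap7 and Ppp2r5a also fell, by 0.25 to 0.79 in size. Calmodulin genes encode the same protein, and whether a probe set reads more than 1 of them was not tested.

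Camk2b, another subunit of that kinase, differed in R140Q. It read 7.76, 7.82, 8.33 and 8.22 in control, 8.91, 8.70, 8.77 and 8.60 in R140Q, and 7.95, 7.79, 8.30 and 7.88 in R172K, so that all R140Q arrays lay above the rest. It rose by 0.71 ± 0.14 in R140Q (limma adjusted p = 0.0252) and was lower in R172K than in R140Q, at -0.77 ± 0.14 (adjusted p = 0.0317). The R140Q call was lost without control 1 (adjusted p = 0.0856), control 2 (0.0840), R140Q 1 (0.0791) or R140Q 3 (0.0800), and the call between the mutants without R140Q 1, R140Q 3, R140Q 4, R172K 1 or R172K 2 (adjusted p up to 0.106).

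Of 9 mitochondrial calcium genes, Micu3 and Vdac2 rose by 0.43 ± 0.13 and 0.24 ± 0.06 in R172K, and Ppif, which encodes cyclophilin D of the permeability transition pore, fell by 0.37 ± 0.09. Of all genes, 6.23% were called higher and 6.78% lower.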

How the data were processed

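The deposited table holds 1 intensity per probe set and array, which the authors computed by RMA, per the submitters' processing notes (version not stated there). The values are on a linear scale as judged from the file (array medians 74.8 to 78.0), so log2 was taken with no pseudocount. RMA makes the distributions of the arrays alike, though not equal in the deposited values, so a shift common to most genes can be invisible. The platform annotation, which can be old, gave 1 symbol to 21640 of 34760 probe sets, several to 1321 and none to 11799; the former made up 19937 genes.

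Group means of all 12 arrays were fitted with limma 3.58.1 in R 4.3.3 (lmFit, eBayes, two-sided), and p-values were adjusted by Benjamini-Hochberg over all genes. Each group has 4 arrays, whose number limits the precision. Errors of differences are SE and of group values SD. The fit was tested on data simulated with normal noise and known changes. Of 50 changes by 1.25-fold, 17 were recovered in R140Q, 11 in R172K and 10 between the mutants. At 2-fold, 47, 43 and 50 of 50 were recovered. A small change could therefore be missed. All 10 genes are named. Of the other calcium genes, at most 4 per comparison, those that passed with the smallest p, are given with array values. The rest of those called in R172K are named as well. The genes and lists were chosen with earlier results of these data known. Alternatives were other scalings, filters, thresholds, covariates and left-out arrays. Replicate numbers did not pair the arrays: same-numbered arrays correlated from -0.336 to 0.152 after group means were removed. Upstream sequences are from RefSeq.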

Additional observations from a re-analysis of the deposited data

Results flagged for a closer look

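Among 48 groups of 4 arrays checked for an array apart from the rest, 1 stood out: for Atp2a2, control 4, at 13.54 where the other controls were at 13.59, had a gap that made up 0.945 of the group's range, above Dixon's 95% critical value. Chance gives this in about 1 in 20 groups.

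The mutant groups differed from each other for Camk2b, with a direct difference of -0.77 between R172K and R140Q (limma adjusted p = 0.0317, lower in 4 of 4 arrays), and for Calm3, with 0.55 (adjusted p = 0.0400, higher in 4 of 4 arrays). Their atrial marker means did not overlap either (6.64 to 7.67 in R140Q, 8.53 to 10.04 in R172K), so mutation and tissue sampled cannot be told apart here. The Camk2b call was lost without R140Q 1, R140Q 3, R140Q 4, R172K 1 or R172K 2 (adjusted p up to 0.106), and that of Calm3 without any array other than R172K 3 (up to 0.131).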

How the results depend on the processing

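The R172K differences of Casq1 and Hrc stayed called under all 13 other settings, apart from single left-out arrays, and in all 12 fits without 1 array. The number of the 10 genes called in R172K went from 5 to 3 with only the groups compared, with quantile normalization and with the replicate block, and to 2 with cardiomyocyte centring or an adjusted p under 0.01, and to 6 with every probe set (Trdn added); without 1 array it was 2 to 5. In R140Q it went from 0 to 1 with only the groups compared (Hrc), with the replicate block (Casq1, adjusted p = 0.0189) and with every probe set (Trdn), and to 3 with array weights (Ryr2, Casq1 and Hrc), and without 1 array it was 0 to 1. Between the mutants it was 0 to 1 without 1 array.

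Calls among the other 66 calcium genes in R140Q (2) were 9 with only the groups compared, 5 without the dimmest 25% of genes, 5 with quantile normalization, 5 with 16 added to the intensity, 10 with array weights, 1 at 0.01 and 1 with Myl7 as a covariate, and 1 to 7 without 1 array. In R172K (20) they were 10 with only the groups compared and 8 at 0.01, and 9 to 24 without 1 array. Between the mutants (2) they were 0 with only the groups compared, with the replicate block or at 0.01, 10 with array weights, 5 with control 3, R172K 3 and R140Q 4 left out, 1 with Myl7, and 0 to 9 without 1 array. Over all genes, calls ran from 13 to 1651 in R140Q (439), 773 to 4548 in R172K (2593) and 1 to 1774 between the mutants (296).

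Signs turned only among differences that had missed the threshold. Cardiomyocyte centring gave 0.0017 for Trdn in R140Q, 0.13, 0.012 and 0.11 for Casq2, Trdn and Jph2 in R172K, and 0.020, 0.016, 0.010 and 0.021 for Atp2a2, Pln, Trdn and Jph1 between the mutants. Array weights gave 0.033 for Jph2 in R172K and 0.031 for Jph1 between the mutants. Myl7 gave -0.032 for Jph2 and -0.10 for Slc8a1 in R140Q, and 0.032 for Jph1 between the mutants. The other Slc8a1 probe set gave -0.35 between the mutants. Without 1 array, Slc8a1 ran from -0.015 to 0.19 in R140Q and from -0.027 to 0.11 between the mutants, Jph1 from -0.29 to 0.078 between the mutants and Jph2 from -0.18 to 0.037 in R172K. Replicate numbers did not pair the arrays, and the block also ended the R172K calls of Atp2a2 (adjusted p = 0.0754) and Pln (0.0703). Causes were not tested. Median centring moved the calls between the mutants from 97 higher and 199 lower to 69 and 252.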
